A study of Arabidopsis thaliana with 6 samples.

Results

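Genes of membrane traffic, named by the family symbols PRA, SEC, VPS, SYP, VAMP, RAB and EXO70, were followed in Arabidopsis thaliana seedlings at 3 temperatures and in 2 genotypes. They were found by symbol among the probe sets of the ATH1 array that the platform annotation gives to a single gene. The rule found 33 genes with 1 probe set each, and 31 of them passed the filter, out of 18227 probe sets that passed. The filter asked for a signal above 13.7, the 25th percentile of all signals and the floor to which lower values were raised, on at least 2 of the 6 arrays. The 31 genes were 11 of 12 PRA genes, all 10 SEC genes, 9 of 10 VPS genes and RAB6A, the only gene with a RAB symbol. No SYP, VAMP or EXO70 symbol stood in that annotation, although a RefSeq gene table lists 170 protein-coding genes with symbols of the 7 kinds. The families as measured here are therefore incomplete, with 1 RAB GTPase and 1 SNARE among them.

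Vesicle traffic moves membrane and cargo between compartments in steps of budding, tethering and fusion. RAB GTPases mark the compartments, prenylated RAB acceptors (PRA1 proteins) are small membrane proteins that bind RABs, and exchange factors of the VPS9 type switch RABs on. The exocyst, built from SEC subunits, tethers secretory vesicles at the plasma membrane, and SNAREs with their Sec1/Munc18 partners carry out fusion. The ESCRT complexes, to which most VPS genes here belong, sort ubiquitinated membrane proteins into vesicles inside the multivesicular body on the way to the vacuole.

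The mutant, AtrbohB, carries a dSpm transposon in At1g09090, which encodes a homologue of the NADPH oxidase that makes superoxide in the respiratory burst. It was set against wild type (WT), and both were in the Col-0 background. Whole seedlings grown on MS medium in 16 h days were floated on water at 20, 30 or 40 °C, for a time the labels do not give, and frozen. Each of the 6 groups, AtrbohB at 20, 30 and 40 °C and WT at 20, 30 and 40 °C, was 1 array hybridised with RNA from 90 pooled plants, so no group had a replicate. The mutant is 1 insertion line as far as the labels go. At1g09090 has no single-gene probe set in the annotation, so the insertion could not be checked from these signals.

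Signals are the deposited intensities, scaled so that every array has the same trimmed mean of 100.0. The median signal of an array ranged from 38.5 to 44.0. The floor held 22.9 to 27.6% of the probe sets of an array. The AtrbohB array at 40 °C is titled a repeat and had 1163 outlier cells, against 299 to 754 on the other 5 arrays. Differences were fitted with limma as the sum of a genotype and a temperature effect over all 18227 probe sets, with 2 residual degrees of freedom. The spread behind each standard error holds array noise together with any unequal response of the genotypes. A gene was called when its p, adjusted by Benjamini-Hochberg over all probe sets tested, was below 0.05. Temperature comparisons share arrays with each other, so their values are set side by side and no overlap between them is given. As an array of whole seedlings, the measurement cannot tell fewer cells of a type from less RNA per cell.

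**Figure D1:**
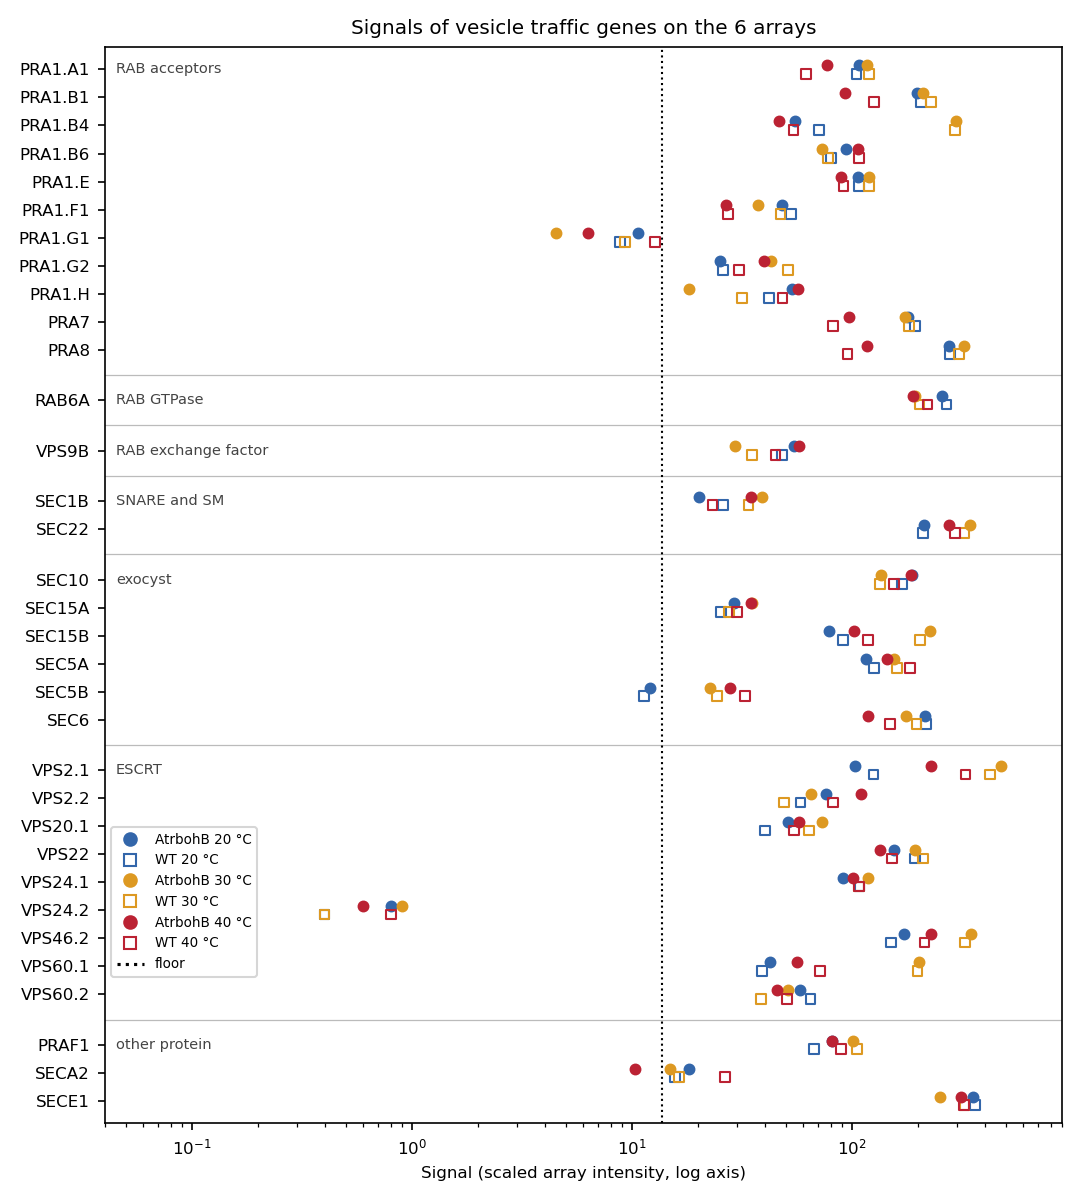
Signal of each of the 33 genes on each of the 6 arrays, on a logarithmic axis, with the genes grouped by role. Filled circles are AtrbohB and open squares WT, colours give the temperature, and the dotted line is the floor of 13.7. PRA1.G1 and VPS24.2 lie below the floor on all 6 arrays.

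Traffic genes were called in both directions in each temperature comparison. At 30 against 20 °C, 9 of 31 were called higher and 4 lower, 41.9% in all, where 35.6% of all probe sets were called (14.9% higher and 20.7% lower). At 40 against 20 °C, 7 were called higher and 7 lower, 45.2%, where 28.1% of all probe sets were called (13.5% higher and 14.7% lower). At 40 against 30 °C, 4 were called higher and 13 lower, 54.8%, where 42.7% of all probe sets were called (24.9% higher and 17.8% lower). The median log2 difference of the 31 genes was 0.18, 0.15 and -0.29 in these 3 comparisons, beside -0.07, 0.08 and 0.15 over all probe sets.

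The array scaling weighed on these splits. With each array scaled to a common median, 11 traffic genes were called higher and 1 lower at 30 against 20 °C. Of all 18220 probe sets tested under that scaling, 3001 were called higher and 3153 lower there. The traffic split was 4 higher and 7 lower at 40 against 20 °C, beside 1737 and 2907 of all probe sets. It was 2 higher and 14 lower at 40 against 30 °C, beside 3214 and 3817 of all probe sets. The reported scaling had 4538 and 3243 of all probe sets in that comparison. Quantile normalization gave 11 higher and 2 lower at 30 against 20 °C, beside 2900 and 3692 of 18191 probe sets. The common median moved the median of all probe sets at 40 against 30 °C to 0.03, so each gene's value below is to be read against these medians.

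The 6 arrays allow few calls to survive the loss of 1. Leaving out an array leaves 1 residual degree of freedom and lowers the share of all probe sets called as well, at 40 against 20 °C to 4.51% without the WT array at 40 °C. At 30 against 20 °C, the calls of PRA1.B4, SEC15B, VPS2.1, VPS46.2 and VPS60.1, 5 of 13, held with every array left out in turn and under the 8 other settings of scaling, floor and variance prior. At 40 against 20 °C this was so for PRA8 alone of 14. Against 30 °C, at 40 °C, it was so for PRA1.B1, PRA1.B4, PRA7, PRA8 and VPS60.1, 5 of 17. For the other calls, the arrays whose loss ended them are named beside the gene.

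Other settings of the fit also ended calls. Dropping floor and filter together lowered the share of all probe sets called from 35.6% to 20.3% at 30 against 20 °C. That share went from 28.1% to 11.8% at 40 against 20 °C and from 42.7% to 24.7% at 40 against 30 °C. With floor and filter dropped together, 6 calls at 30 against 20 °C were lost, those of SEC10, VPS20.1, SEC5B, PRA1.G2, VPS9B and PRA1.H (adjusted p = 0.0553 to 0.151). The 7 lost in the same way at 40 against 20 °C were VPS2.2, SEC5B, PRA1.F1, PRA1.A1, RAB6A, VPS60.1 and SEC5A (adjusted p = 0.0514 to 0.0873). The 5 lost against 30 °C were PRA1.B6, VPS2.1, PRA1.F1, PRA1.H and VPS9B (adjusted p = 0.0525 to 0.105). The log2 differences of these genes were the same as those reported, except that SEC5B had 1.02 at 30 and 1.37 at 40 against 20 °C. With a variance prior that did not follow the signal, RAB6A and SEC10 at 30 against 20 °C (adjusted p = 0.0723 and 0.0817), VPS46.2, SEC22, SEC5A and RAB6A at 40 against 20 °C (adjusted p = 0.0607 to 0.108) and PRA1.E at 40 against 30 °C (adjusted p = 0.0574) were lost.

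**Figure D2:**
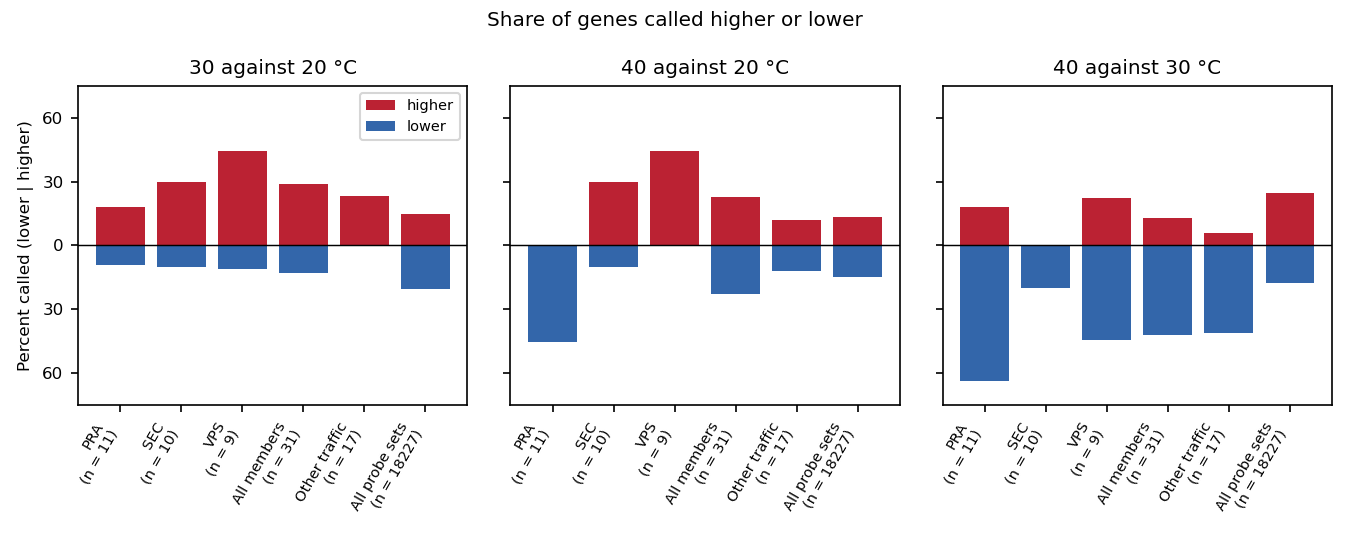
Percent of genes called higher (red, upward) and lower (blue, downward) in the 3 temperature comparisons. The bars are the PRA, SEC and VPS symbols, all 31 genes, the 17 genes of the other traffic list (SLY1 included) and all 18227 probe sets. SEC5B, whose calls against 20 °C carry no weight, is in the bars of the SEC symbols and of all 31 genes. At 40 against 30 °C, 7 of 11 PRA genes were called lower, and at 40 against 20 °C 4 of 9 VPS genes were called higher and none lower.

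Genes for prenylated RAB acceptors fell at 40 °C more often than they rose. Of the 10 acceptors that passed the filter, none was called higher and 5 lower at 40 against 20 °C, and 2 higher and 7 lower at 40 against 30 °C. At 30 against 20 °C, 2 were called higher and 1 lower. Of all probe sets, 13.5% were called higher and 14.7% lower at 40 against 20 °C. The shares were 24.9% higher and 17.8% lower at 40 against 30 °C, and 14.9% and 20.7% at 30 against 20 °C. The median log2 differences of the acceptors were 0.14 at 30 against 20 °C, -0.47 at 40 against 20 °C and -0.71 at 40 against 30 °C. They are known from mammals to bind prenylated RABs and to help deliver them to membranes, and in plants the family is large.

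PRA8, an acceptor of the PRA1.F group, had signals of 277, 324 and 117 in AtrbohB seedlings at 20, 30 and 40 °C, and of 279, 307 and 95.3 in WT. It was low on both 40 °C arrays, and its log2 difference at 30 against 20 °C was 0.18 (adjusted p = 0.281). It fell 2.63-fold at 40 against 20 °C (log2 -1.40 ± 0.12, SE; adjusted p = 9.13e-05). The fall against 30 °C was 2.98-fold (log2 -1.58 ± 0.12, SE; adjusted p = 3e-05).

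PRA7, of the same group, had signals of 179.7, 173 and 96.6 in AtrbohB seedlings at 20, 30 and 40 °C, and of 194, 181 and 81.7 in WT. As for PRA8, both 40 °C arrays lay below the other 4. PRA7 fell 2.1-fold at 40 against 20 °C (log2 -1.07 ± 0.13, SE; adjusted p = 0.000778). Without the WT array at 40 °C this value was -0.91, with an adjusted p of 0.0536. The log2 difference at 40 against 30 °C was -1.0.

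PRA1.F1, another acceptor of that group, was dimmer, at 48.0, 37.5 and 26.8 in AtrbohB seedlings at 20, 30 and 40 °C, and at 52.7, 47.3 and 27.2 in WT. It fell 1.86-fold at 40 against 20 °C (log2 -0.90 ± 0.20, SE; adjusted p = 0.0139). That call was lost without any of the 20 or 40 °C arrays, with values between -1.0 and -0.79 and adjusted p between 0.116 and 0.161. Its call at 40 against 30 °C, at -0.64, was lost with each array in turn, with values between -0.77 and -0.51.

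PRA1.B1 and PRA1.B4 carry symbols of 1 subgroup and had different temperature profiles. PRA1.B4 had signals of 55.2, 296 and 46.7 in AtrbohB seedlings at 20, 30 and 40 °C, and of 70.8, 293 and 54.2 in WT. It was high on the 30 °C arrays alone, and at 40 °C it lay below its 20 °C signal within each genotype. It rose 4.71-fold at 30 against 20 °C (log2 2.24 ± 0.15, SE; adjusted p = 2.21e-05). At 40 against 30 °C it fell 5.85-fold (log2 -2.55 ± 0.15, SE; adjusted p = 9.05e-06), and its value at 40 against 20 °C was -0.31 (adjusted p = 0.16).

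PRA1.B1 had 198, 209.7 and 92.5 in AtrbohB seedlings at 20, 30 and 40 °C, and 205, 229 and 125.5 in WT. It was lower on both 40 °C arrays than on the other 4, and its log2 difference at 30 against 20 °C was 0.12 (adjusted p = 0.522). At 40 against 30 °C it fell 2.03-fold (log2 -1.02 ± 0.13, SE; adjusted p = 0.000502). Its log2 difference at 40 against 20 °C was -0.90, a call lost without the AtrbohB array at 20 °C (-0.79, adjusted p = 0.052) or at 40 °C (-0.73, adjusted p = 0.0617).

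PRA1.H took the opposite course to PRA1.B4. It had 53.3, 18.2 and 57.0 in AtrbohB seedlings at 20, 30 and 40 °C, and 42.0, 31.7 and 48.3 in WT. Its lowest signal was on the AtrbohB array at 30 °C, and within each genotype the 30 °C signal was the lowest of the 3. It fell 1.97-fold at 30 against 20 °C (log2 -0.98 ± 0.30, SE; adjusted p = 0.034) and rose 2.18-fold at 40 against 30 °C (log2 1.13 ± 0.30, SE; adjusted p = 0.0164). The AtrbohB array at 30 °C set the size of both: without it they were -0.43 and 0.58, with adjusted p of 0.258 and 0.147. The first call was kept only without the WT array at 30 °C (-1.52, adjusted p = 0.0325), and without the AtrbohB array at 20 °C it was -0.67 (adjusted p = 0.303), without the WT array at 20 °C -1.29 (adjusted p = 0.0848) and without either 40 °C array -0.98 (adjusted p = 0.152). The second was also lost without the AtrbohB array at 40 °C (0.89, adjusted p = 0.273) or the WT array at 40 °C (1.36, adjusted p = 0.144).

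PRA1.G2 had 25, 42.6 and 39.9 in AtrbohB seedlings at 20, 30 and 40 °C, and 26.0, 51.1 and 30.6 in WT. It rose 1.83-fold at 30 against 20 °C (log2 0.87 ± 0.23, SE; adjusted p = 0.0195), and both 20 °C arrays lay below the other 4. The call was lost with each array left out, at values between 0.66 and 1.08 and adjusted p between 0.0563 and 0.177.

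PRA1.B6 had 94.0, 73.3 and 107 in AtrbohB seedlings at 20, 30 and 40 °C, and 80.1, 77.6 and 108 in WT. It rose 1.42-fold at 40 against 30 °C (log2 0.51 ± 0.15, SE; adjusted p = 0.0288). The call was lost without any of the 30 or 40 °C arrays, at values between 0.41 and 0.60, and with each array scaled to a common median (0.37, adjusted p = 0.0863).

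PRA1.A1 and PRA1.E completed the acceptors called lower at 40 °C. PRA1.A1 had 108, 116.5 and 77.1 in AtrbohB seedlings at 20, 30 and 40 °C, and 105, 119.5 and 61.5 in WT. Its log2 differences at 40 °C were -0.63 against 20 °C and -0.78 against 30 °C. The first call was lost with each array left out (-0.79 to -0.46). The second was lost without the AtrbohB array at 30 °C (-0.89, adjusted p = 0.0575), the WT array at 30 °C (-0.67, adjusted p = 0.0845) or the WT array at 40 °C (-0.62, adjusted p = 0.07). PRA1.E had 107, 119.8 and 89.2 in AtrbohB seedlings, and 107, 119 and 91.4 in WT, and its call at 40 against 30 °C, at -0.40, was lost with each array left out (-0.42 to -0.38). PRA1.G1, the remaining acceptor, did not pass the filter, with signals between 4.5 and 12.7.

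**Figure D3:**
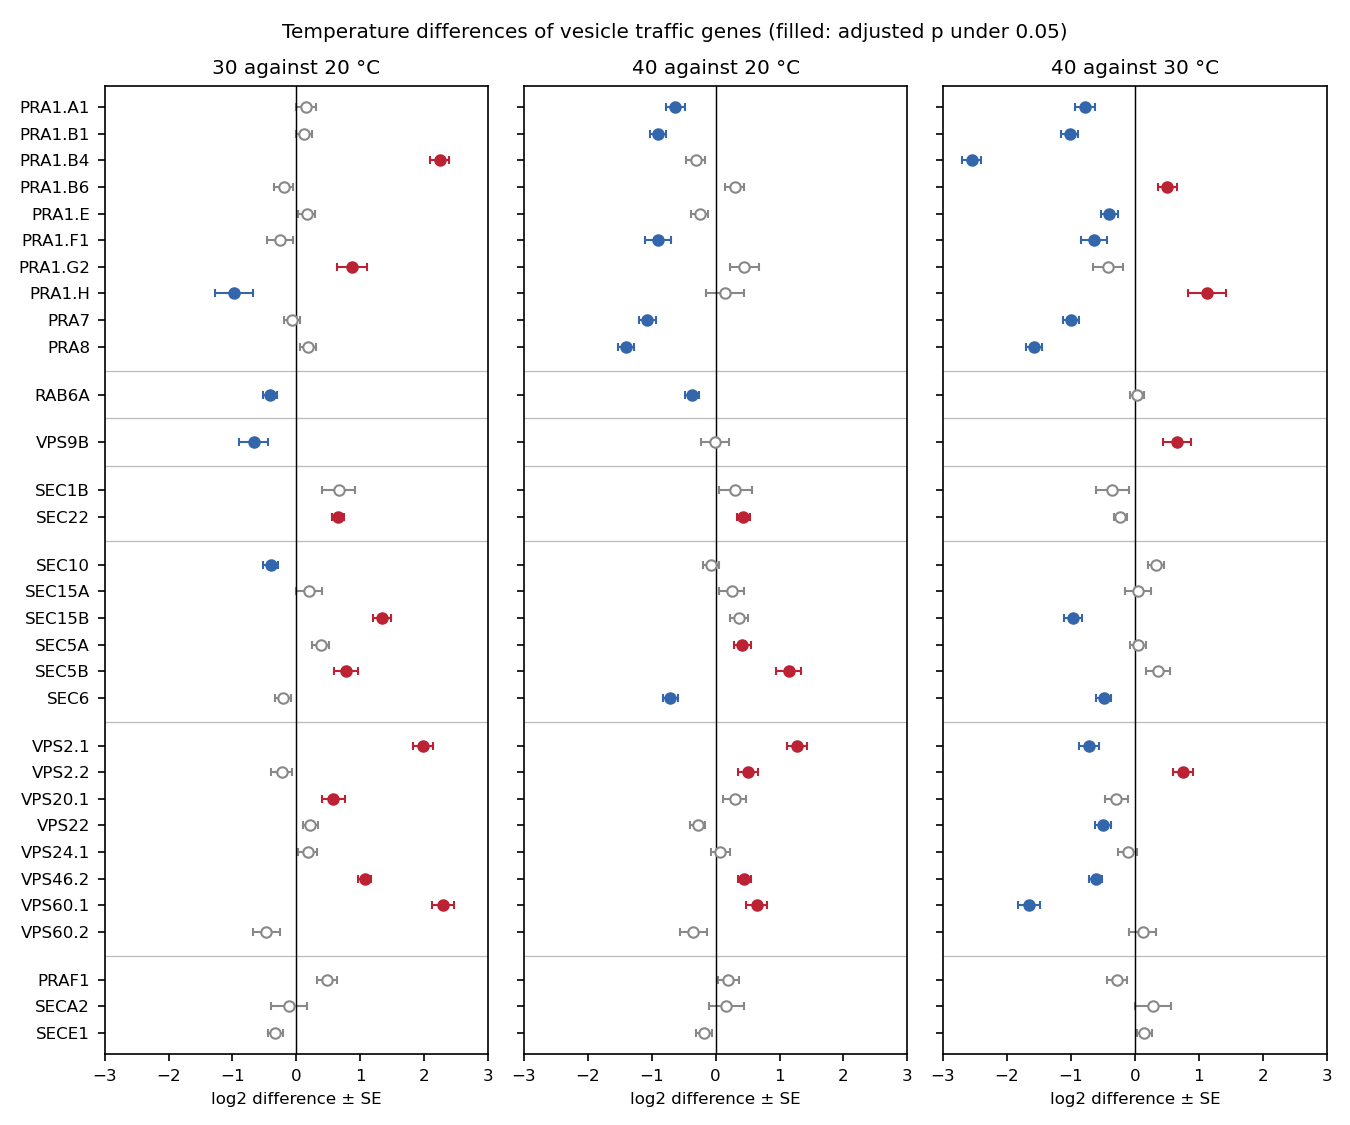
Log2 difference with its standard error for each of the 31 genes in the 3 temperature comparisons, grouped in the order acceptors, RAB6A, VPS9B, fusion proteins, exocyst, ESCRT and 3 other proteins. Filled points were called (red higher, blue lower) and open points were not. PRA1.B4 and VPS60.1 have the largest values at 30 against 20 °C, and PRA8 has the lowest at 40 against 20 °C.

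RAB6A, a GTPase of the Golgi, was the only gene measured under a RAB symbol. It had 257, 194 and 189 in AtrbohB seedlings at 20, 30 and 40 °C, and 269, 203 and 220.1 in WT. Both 20 °C arrays lay above the other 4. It fell 1.32-fold at 30 against 20 °C (log2 -0.41 ± 0.11, SE; adjusted p = 0.0202) and 1.29-fold at 40 against 20 °C (log2 -0.37 ± 0.11, SE; adjusted p = 0.0381). The first call was lost without any of the 20 or 30 °C arrays (-0.45 to -0.37) and on scaling to a common median (-0.34, adjusted p = 0.0662). The second was lost with each array left out (-0.45 to -0.29) and under quantile normalization (-0.28, adjusted p = 0.097).

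VPS9B, a homologue of the RAB exchange factor VPS9A, had 54.2, 29.3 and 57.4 in AtrbohB seedlings at 20, 30 and 40 °C, and 47.9, 35.1 and 44.9 in WT. Like PRA1.H, it was lowest at 30 °C in each genotype. It fell 1.59-fold at 30 against 20 °C (log2 -0.67 ± 0.22, SE; adjusted p = 0.0473) and rose 1.58-fold at 40 against 30 °C (log2 0.66 ± 0.22, SE; adjusted p = 0.042). Each call was lost with each array left out (-0.93 to -0.40 and 0.40 to 0.93), under quantile normalization (-0.58 and 0.52) and on scaling to a common median (-0.60 and 0.52).

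Of the proteins of membrane fusion, SEC22, a SNARE that acts between the endoplasmic reticulum and the Golgi, rose. It had 213, 343 and 276 in AtrbohB seedlings at 20, 30 and 40 °C, and 211, 324 and 294 in WT. Both 20 °C arrays lay below the other 4, and the 30 °C signals were the highest. It rose 1.57-fold at 30 against 20 °C (log2 0.65 ± 0.10, SE; adjusted p = 0.00172), a call lost without the AtrbohB array at 30 °C (0.59, adjusted p = 0.0639). The rise at 40 against 20 °C was 1.34-fold (log2 0.43 ± 0.10, SE; adjusted p = 0.018), a call lost with each array left out (0.36 to 0.50) and on scaling to a common median (0.36, adjusted p = 0.0665).

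SEC1B, a Sec1/Munc18 protein that works with SNAREs, was not called in any comparison. It had 20.2, 38.9 and 34.7 in AtrbohB seedlings at 20, 30 and 40 °C, and 26.0, 33.8 and 23.2 in WT. Its log2 difference at 30 against 20 °C was 0.66 with a standard error of 0.26 (adjusted p = 0.0833).

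The exocyst subunits did not move together. Of 6 subunit genes, 2 were called higher and 1 lower at 30 against 20 °C, 2 higher and 1 lower at 40 against 20 °C, and none higher and 2 lower at 40 against 30 °C. Their median log2 differences were 0.29, 0.31 and 0.05 in that order. Of all probe sets, 35.6%, 28.1% and 42.7% were called in these comparisons. SEC5B was 1 of the 2 called higher at 30 and at 40 against 20 °C, and its calls carry no weight, as given below.

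SEC15A and SEC15B encode paralogous subunits that in yeast link the exocyst to a RAB on the vesicle. SEC15B had 78.6, 226 and 102 in AtrbohB seedlings at 20, 30 and 40 °C, and 91.0, 203 and 118 in WT. It was high on the 30 °C arrays. SEC15B rose 2.53-fold at 30 against 20 °C (log2 1.34 ± 0.14, SE; adjusted p = 0.000215). It fell 1.96-fold at 40 against 30 °C (log2 -0.97 ± 0.14, SE; adjusted p = 0.000985), a call lost without the AtrbohB array at 40 °C (-0.88, adjusted p = 0.0656). SEC15A had 29.0, 35.2 and 34.6 in AtrbohB seedlings, and 25.4, 27.6 and 29.9 in WT. Its log2 differences were 0.20 ± 0.20 at 30 and 0.25 ± 0.20 at 40 against 20 °C (SE), and neither was called.

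SEC5A and SEC5B are likewise paralogous subunits. SEC5B had 12.0, 22.7 and 28.0 in AtrbohB seedlings at 20, 30 and 40 °C, and 11.3, 24.4 and 32.5 in WT. Both 20 °C signals lay below the floor, so its rises are bounds: at least 1.72-fold at 30 °C (adjusted p = 0.0149) and at least 2.2-fold at 40 °C (adjusted p = 0.00362). SEC5B passed the filter only through the 30 and 40 °C arrays, so a difference from 20 °C was built into its selection and its calls carry no weight. Without it, 8 traffic genes were called higher and 4 lower at 30 against 20 °C, 6 higher and 7 lower at 40 against 20 °C, and of 5 exocyst genes 1 higher and 1 lower in both. The call at 30 °C was lost without any of the 20 or 30 °C arrays (0.70 to 0.86 on the log2 scale). The call at 40 °C was lost without the WT array at 20 °C (1.06, adjusted p = 0.0659), the AtrbohB array at 40 °C (1.22, adjusted p = 0.0587) or the WT array at 40 °C (1.06, adjusted p = 0.0713). With the floor raised to 27.9, the 40th percentile, its 20 and 30 °C signals all became the floor and neither call was made.

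SEC5A had 116 and 126 at 20 °C in AtrbohB and WT seedlings, 155 and 159 at 30 °C, and 144 and 183 at 40 °C. It rose 1.34-fold at 40 against 20 °C (log2 0.42 ± 0.13, SE; adjusted p = 0.0427). That call was lost with each array left out (0.29 to 0.56) and on scaling to a common median (0.35, adjusted p = 0.105).

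SEC6 and SEC10, core exocyst subunits, fell, each at a different temperature. SEC6 had 214.5, 176 and 118 in AtrbohB seedlings at 20, 30 and 40 °C, and 217, 196 and 148.5 in WT. The order of the temperatures was the same in both genotypes. It fell 1.63-fold at 40 against 20 °C (log2 -0.71 ± 0.12, SE; adjusted p = 0.004) and 1.41-fold at 40 against 30 °C (log2 -0.49 ± 0.12, SE; adjusted p = 0.013). The first call was lost without the AtrbohB array at 20 °C (-0.59, adjusted p = 0.0809), the AtrbohB array at 40 °C (-0.58, adjusted p = 0.0901) or the WT array at 40 °C (-0.83, adjusted p = 0.0637). The second was lost without any of the 30 or 40 °C arrays (-0.61 to -0.37).

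SEC10 had 188, 135 and 186 in AtrbohB seedlings at 20, 30 and 40 °C, and 168, 134 and 155 in WT. Both 30 °C arrays lay below the other 4. It fell 1.32-fold at 30 against 20 °C (log2 -0.40 ± 0.12, SE; adjusted p = 0.0329). That call was lost with each array left out (-0.50 to -0.30), under quantile normalization (-0.36, adjusted p = 0.0529) and on scaling to a common median (-0.33, adjusted p = 0.0777).

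Several genes of the ESCRT complexes rose at 30 °C, and several were above their 20 °C level at 40 °C. Of 8 ESCRT genes that passed the filter, 4 were called higher and none lower at 30 against 20 °C, and 4 higher and none lower at 40 against 20 °C. Between 40 and 30 °C, 1 was called higher and 4 lower. Their median log2 differences were 0.40, 0.37 and -0.40 in that order. Of all probe sets, 14.9% were called higher and 20.7% lower at 30 against 20 °C, and 13.5% and 14.7% at 40 against 20 °C. Between 40 and 30 °C the shares were 24.9% higher and 17.8% lower.

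VPS60.1, an ESCRT-III related protein, had 42.5, 202 and 56.4 in AtrbohB seedlings at 20, 30 and 40 °C, and 39.1, 198 and 71.4 in WT. Its 30 °C signals stood far above the other 4. It rose 4.91-fold at 30 against 20 °C (log2 2.29 ± 0.17, SE; adjusted p = 3.6e-05) and fell 3.15-fold at 40 against 30 °C (log2 -1.66 ± 0.17, SE; adjusted p = 0.000158). At 40 against 20 °C it rose 1.56-fold (log2 0.64 ± 0.17, SE; adjusted p = 0.027), a call lost with each array left out (0.43 to 0.84). Its paralogue VPS60.2 had 58.1, 51.0 and 45.8 in AtrbohB seedlings, and 64.7, 38.4 and 50.5 in WT. VPS60.2 was not called, with log2 differences of -0.47 ± 0.21 at 30 and -0.35 ± 0.21 at 40 against 20 °C (SE).

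VPS2.1 and VPS2.2 belong to ESCRT-III, whose filaments narrow and cut the neck of the budding vesicle. VPS2.1 had 103, 475 and 227 in AtrbohB seedlings at 20, 30 and 40 °C, and 125.0, 424 and 328 in WT. The temperatures did not overlap, and 30 °C was the highest. VPS2.1 rose 3.96-fold at 30 against 20 °C (log2 1.98 ± 0.16, SE; adjusted p = 5.11e-05) and 2.41-fold at 40 against 20 °C (log2 1.27 ± 0.16, SE; adjusted p = 0.000802). The call at 40 °C was lost without the AtrbohB array at 40 °C (1.5, adjusted p = 0.0528) or the WT array at 40 °C (1.03, adjusted p = 0.088). It fell 1.64-fold at 40 against 30 °C (log2 -0.72 ± 0.16, SE; adjusted p = 0.00779), a call lost without the AtrbohB array at 30 °C (-0.43, adjusted p = 0.13), the AtrbohB array at 40 °C (-0.48, adjusted p = 0.177) or the WT array at 40 °C (-0.95, adjusted p = 0.0589).

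VPS2.2 was highest at 40 °C in place of 30 °C. It had 76.2, 65.2 and 110.0 in AtrbohB seedlings at 20, 30 and 40 °C, and 58.3, 49.2 and 82.1 in WT. It rose 1.43-fold at 40 against 20 °C (log2 0.51 ± 0.16, SE; adjusted p = 0.0443) and 1.68-fold at 40 against 30 °C (log2 0.75 ± 0.16, SE; adjusted p = 0.00614). The first call was lost with each array left out (0.50 to 0.53) and on scaling to a common median (0.44, adjusted p = 0.081). The second was lost without any of the 30 or 40 °C arrays (0.73 to 0.76).

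VPS46.2, another ESCRT-III related protein, had 173, 348.5 and 228 in AtrbohB seedlings at 20, 30 and 40 °C, and 149.8, 327 and 213 in WT. The temperatures again did not overlap, with 30 °C the highest. It rose 2.1-fold at 30 against 20 °C (log2 1.07 ± 0.10, SE; adjusted p = 0.000141) and fell 1.53-fold at 40 against 30 °C (log2 -0.61 ± 0.10, SE; adjusted p = 0.00216). The fall was not called without the AtrbohB array at 30 °C (-0.64, adjusted p = 0.0507), the WT array at 30 °C (-0.59, adjusted p = 0.0529) or the AtrbohB array at 40 °C (-0.59, adjusted p = 0.0543). Its log2 difference at 40 against 20 °C was 0.45, a call lost with each array left out (0.40 to 0.51).

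VPS20.1, known from yeast as the ESCRT-III subunit that starts the filament, had 51.3, 73.2 and 57.1 in AtrbohB seedlings at 20, 30 and 40 °C, and 40.3, 63.5 and 54.6 in WT. Its log2 difference at 30 against 20 °C was 0.58, a call lost with each array left out (0.48 to 0.69). VPS22, of ESCRT-II, had 154, 194 and 134 in AtrbohB seedlings, and 193, 210.2 and 151.5 in WT. Its log2 difference at 40 against 30 °C was -0.50, a call lost without any of the 30 or 40 °C arrays (-0.57 to -0.44). VPS24.1, also of ESCRT-III, lay between 91.3 and 118 on the 6 arrays and was not called in any comparison. VPS24.2 did not pass the filter, with a highest signal of 0.9.

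**Figure D4:**
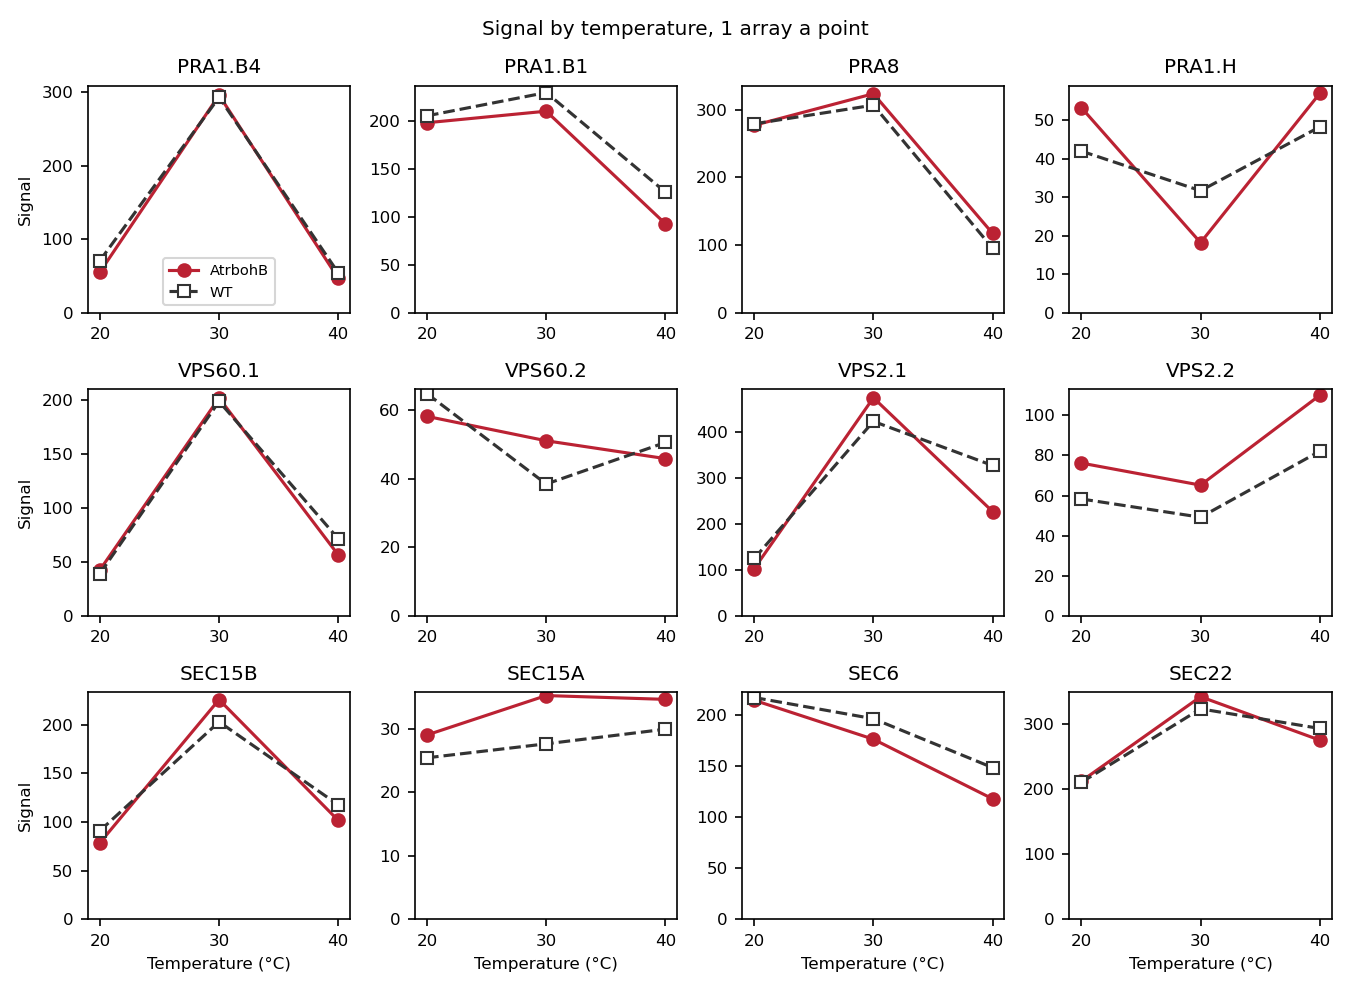
Signal against temperature for 12 of the genes, 1 array a point, with AtrbohB as filled circles on a solid line and WT as open squares on a dashed line; each panel starts at 0 and has its own scale. PRA1.B4, VPS60.1, VPS2.1 and SEC15B peak at 30 °C in both genotypes, PRA8 and PRA1.B1 drop at 40 °C, and VPS60.2 and SEC15A show no called difference.

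The 3 remaining genes fit the letters of the rule and encode other proteins. PRAF1 is a protein with PH, RCC1 and FYVE domains, and SECA2 and SECE1 belong to protein translocation in the chloroplast. None was called in any comparison, and the counts of calls were the same without them. PRAF1 had 81.4, 101 and 81.2 in AtrbohB seedlings at 20, 30 and 40 °C, and 67.2, 105 and 88.8 in WT, with a log2 difference of 0.48 at 30 against 20 °C (adjusted p = 0.0506). SECE1 had 356, 251 and 313 in AtrbohB seedlings, and 361, 325 and 322 in WT. SECA2 had 18.2, 14.8 and 10.3 in AtrbohB seedlings, and 15.7, 16.3 and 26.5 in WT. SECA2 and SEC5B were the dimmest genes to pass the filter, with 5 and 4 arrays above the floor. PRA1.G1, just outside it, reached 12.7, and VPS24.2 lay far below it.

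Other genes of traffic were taken by symbol from a list of ARF-like GTPases, coats, dynamins, tethers, further SNARE and Sec1/Munc18 proteins and ESCRT partners. This gave 17 genes. SLY1 among them, at AT4G24210, encodes the F-box protein SLEEPY1 and not a traffic protein. It was matched by its letters alone and stays in the counts below. At 30 against 20 °C, 4 of the 17 were called higher and none lower, 23.5%, beside 35.6% of all probe sets. ELC, the ESCRT-I homologue of VPS23, had the largest difference (log2 1.22). It was followed by the ESCRT-III gene SNF7.1 (0.94), the Sec1/Munc18 gene KEU (0.82) and SLY1 (0.74). At 40 against 20 °C, 2 were called higher, the dynamin-like DL1B (0.71) and SLY1 (0.60), and 2 lower, the ARF-like ARLA1D (-0.41) and the SNARE YKT61 (-0.30), again 23.5%, beside 28.1% of all probe sets. At 40 against 30 °C, 1 was called higher, DL1B (1.16), and 7 lower, with ELC (-1.09), ARLA1D (-0.69), KEU (-0.67), SNF7.1 (-0.60) and the endocytic adaptor TPLATE (-0.53) the lowest. That is 47.1%, beside 42.7% of all probe sets. ARA6, a plant RAB5-type GTPase in this list, had signals between 229.5 and 278 and was not called. The calls of ELC at 30 against 20 °C, and of ELC and ARLA1D at 40 against 30 °C, held with every array left out and every other setting. The list's other calls were each lost with at least 1 array left out. At 30 against 20 °C, SNF7.1 and KEU were lost without the AtrbohB array at 30 °C (0.93 and 0.74), and SLY1 was kept only without the WT array at 20 °C (0.47 to 1.01 over the arrays). At 40 against 20 °C, DL1B (0.63 to 0.79), ARLA1D (-0.48 to -0.34) and YKT61 (-0.32 to -0.29) were lost with each array left out, and SLY1 was kept only without the WT array at 20 °C (0.33 to 0.87). At 40 against 30 °C, DL1B was lost without the AtrbohB array at 30 °C (1.03), KEU without that array (-0.60) or either 40 °C array (-0.68 and -0.67), SNF7.1 without any of the 30 or 40 °C arrays (-0.67 to -0.52), and TPLATE was kept only without the AtrbohB array at 20 °C (-0.71 to -0.34). DL1B was below the floor on the AtrbohB array at 30 °C, so its value against 30 °C is a bound. With the floor raised to 27.9, DL1B at 40 °C had 0.21 against 20 °C and 0.21 against 30 °C, and neither was called. Over the other settings run, YKT61 at 40 against 20 °C kept its call in 2 of 8 and DL1B in 3 of 7. In that comparison SLY1 kept its call in 5 of 8 and ARLA1D in 7 of 8.

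Other markers of the seedlings moved at 40 °C, and none of those measured was at 0. All 10 mitochondrial genome genes measured were called higher at 40 against 20 °C, where 13.5% of all probe sets were. Of these genes, matR and nad7 were above the floor on the 40 °C arrays alone. A difference was thus built into their selection, and their calls carry no weight. The summed signals of the 10 genes were 11404 in AtrbohB and 11026 in WT at 40 °C, against 670 in AtrbohB and 545 in WT at 20 °C. The heat marker ATHSP22.0 was called higher, at log2 2.78 at 30 and 5.33 at 40 against 20 °C. Of 3 light-harvesting genes of the shoot, 2 were called higher at 40 °C, and their summed signal was 7819 in AtrbohB and 7676 in WT, against 5111 in AtrbohB and 4762 in WT at 20 °C. Of 3 root genes, PYK10 alone was called lower at 40 against 20 °C (log2 -1.69), while EXPA7 (-0.32) and EXPA18 (0.24) were not called. Their summed signal, 851 in AtrbohB and 916 in WT at 40 °C, against 2756 in AtrbohB and 2645 in WT at 20 °C, is mostly PYK10. The part of these shifts in the falls of the acceptor genes and SEC6 at 40 °C was not tested.

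No traffic gene was called between AtrbohB and WT. In limma, 0 of 31 were called and 1 had an unadjusted p below 0.05, where 0% of the 18227 probe sets were called and 735, 4.03%, had such a p. That gene was VPS2.2, at log2 0.40 ± 0.13 (SE, unadjusted p = 0.0137, adjusted p = 0.978), with AtrbohB above WT at each temperature, by 0.39 (20 °C), 0.41 (30 °C) and 0.42 (40 °C). A total of 12 genes had 1 sign at all 3 temperatures, a count not made over all probe sets. The 6 of them whose smallest difference was largest were VPS2.2 and 5 others. Of these, SEC15A (0.25 ± 0.17), VPS20.1 (0.21 ± 0.15) and VPS46.2 (0.13 ± 0.09) lay above WT at all 3 temperatures. VPS22 (-0.21 ± 0.09) and RAB6A (-0.12 ± 0.09) lay below WT at all 3 (SE; adjusted p = 0.978 for each of these genes). With signals below the floor raised to it, 0 of 31 traffic genes differed between the genotypes by 2-fold at any temperature, where 0.625% of all probe sets did at 20 °C, 0.642% at 30 °C and 1.55% at 40 °C. SECA2 at 40 °C, with 10.3 in AtrbohB and 26.5 in WT, was below the floor in AtrbohB, so its log2 difference of -0.95 is a bound and 2-fold may be passed there.

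**Figure D5:**
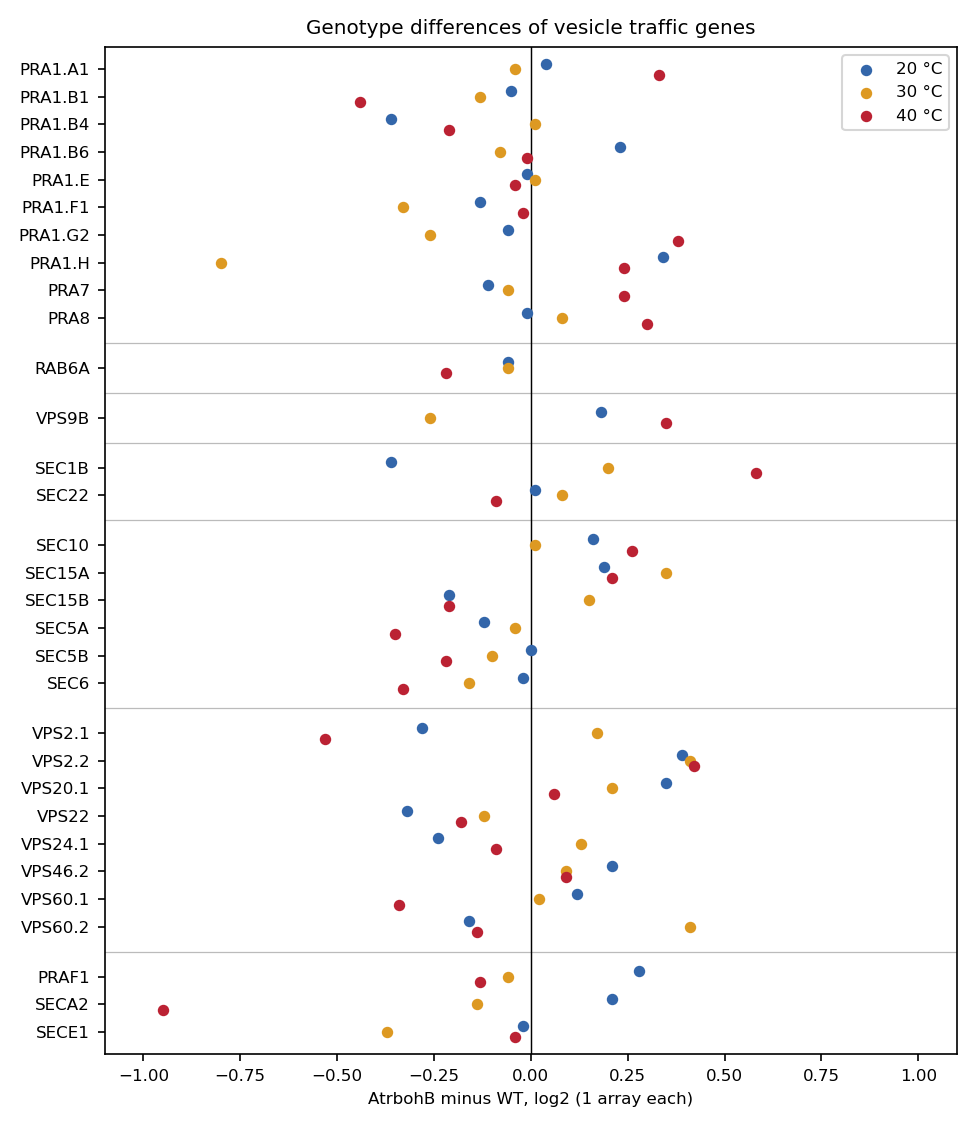
AtrbohB minus WT on the log2 scale for each of the 31 genes at 20, 30 and 40 °C, 1 array per genotype and temperature. All points lie within 1 log2 unit of 0 after signals were raised to the floor (SECA2 at 40 °C is a bound), VPS2.2 lies at about 0.4 at each temperature, and the points farthest from 0 are PRA1.H at 30 °C and SECA2 at 40 °C.

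The temperature responses of the genotypes ran the same way for most traffic genes. At 30 °C, 29 of 31 had the same sign in AtrbohB and WT, 93.5%, where 73.3% of all probe sets had. At 40 °C, 26 of 31 had, 83.9%, where 74.5% of all probe sets had. A probe set held at the floor at both temperatures in a genotype has no sign there and counted as not agreeing. Such probe sets lower the shares of all probe sets, and shares without them were not computed. With 1 array a group, an unequal response of AtrbohB and WT has no error and no test.

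The response to 30 °C differed by 2-fold or more for 1 of 31 genes, where it did for 3.21% of all probe sets. That gene was PRA1.H, with -1.55 in AtrbohB and -0.41 in WT, a difference of -1.14 on the log2 scale that became -0.53 with the higher floor and -0.74 with 16 added to each signal. Among the genes that reached 4 times the floor on an array, next below 0 came VPS9B (-0.44), SECE1 (-0.35) and PRAF1 (-0.33), and above 0 VPS60.2 (0.56), VPS2.1 (0.45), VPS24.1, PRA1.B4 and SEC15B (0.37 each). Of the dimmer genes, SEC1B had 0.57, the highest of all 31, and SECA2 -0.35. VPS2.1 and PRA1.B4 thus had a larger rise in AtrbohB, of 2.21 and 2.42, than in WT, of 1.76 and 2.05, in single arrays.

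The response to 40 °C differed by 2-fold or more for 1 of 31 genes, where it did for 3.5% of all probe sets, and that gene was SECA2, below the floor on the AtrbohB array at 40 °C, so its difference of -1.16 is a bound. Among the genes that reached 4 times the floor, VPS60.1 (-0.46), PRAF1 (-0.41), PRA1.B1 (-0.39) and SEC6 (-0.31) had the lowest differences. PRA7 (0.35), PRA8 (0.31), PRA1.A1 (0.28) and VPS9B (0.18) had the highest. Of the dimmer genes, SEC1B had 0.94, the highest of all 31, and PRA1.G2 0.44. PRA8 fell by 1.24 in AtrbohB and by 1.55 in WT at 40 against 20 °C, and PRA1.B1 by 1.1 in AtrbohB and by 0.71 in WT. Of the 5 acceptors called lower in that comparison, PRA8, PRA7, PRA1.A1 and PRA1.F1 (0.11) had the smaller fall in AtrbohB and PRA1.B1 the larger.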

How the data were processed

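RNA of 6 pooled seedling samples was labelled with biotin and hybridised to Affymetrix ATH1 arrays, per the labels' protocols. The authors deposited 1 intensity per probe set and array on a linear scale. The software and background steps behind the intensities are not given in the sources used here, and the values themselves show a common trimmed mean of 100.0 on each array. All value columns were used, and 0 were left out. Of 22810 probe sets, 64 controls were removed. Platform annotation gave 13513 probe sets 1 gene, 503 several and 8730 none listed, and 13436 of the single-gene probe sets matched RefSeq.

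Intensities were raised to the floor of 13.7 and taken to log2. The probe sets that passed the filter were fitted with limma 3.58.1 in R 4.3.3 (lmFit and eBayes with trend, prior degrees of freedom 6.08) on genotype and temperature, two-sided, with Benjamini-Hochberg adjustment. The script was tested on simulated data. A gene had 1 probe set throughout, so no choice between probe sets arose.

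Statistics are given in full for up to 3 called genes per family and direction in each temperature comparison. For genotype they are given for the 6 genes with the largest smallest difference of 1 sign at all 3 temperatures, for the response difference for the 4 largest each way, and from the other traffic list for up to 5 called each way. The genes, lists and tests were chosen with earlier results of these data known. The list symbols of 2 genes that encode other proteins were left out of the other traffic list. SLY1, which also encodes another protein, was kept in that list and in its counts. Alternatives changed scaling, floor, filter, pseudocount, variance prior, members and arrays. Array number limits the precision. No sequence or coordinate was used.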

Additional observations from a re-analysis of the deposited data

Results flagged for a closer look

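In 5 cases the difference of a gene from 20 °C had opposite signs in AtrbohB and in WT at 2 decimals, some of them close to 0. Each rests on 1 array a group, and the difference was not tested. All values are log2 differences against 20 °C.

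SEC1B at 40 °C was 0.78 in AtrbohB and -0.16 in WT, a difference of 0.94. SECA2 at 40 °C was at most -0.41 in AtrbohB, where its signal lay below the floor, and 0.76 in WT, so its difference of -1.16 is a bound as well. SECA2 at 30 °C was -0.30 in AtrbohB and 0.05 in WT, a difference of -0.35. VPS9B at 40 °C was 0.08 in AtrbohB and -0.09 in WT, a difference of 0.18. VPS24.1 at 40 °C was 0.15 in AtrbohB and -0.01 in WT, a difference of 0.15. VPS24.1 at 30 °C (0.37 in AtrbohB) and PRAF1 at 40 °C (0.40 in WT) also had opposite signs, with a value that rounds to 0 in the other genotype.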

How the results depend on the processing

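With no floor and no filter, 7 of 33 traffic genes were called at 30 against 20 °C, against 13 of 31 as reported. The count at 40 against 20 °C was 7 of 33, against 14 of 31. The share of all probe sets called fell as well. It went from 35.6% to 20.3% in the first comparison and from 28.1% to 11.8% in the second. Leaving out each array in turn gave 5 to 8 calls at 30 against 20 °C, 2 to 7 at 40 against 20 °C and 6 to 14 at 40 against 30 °C. The share of all probe sets called in these fits was lower as well, at 11.5 to 23.8%, 4.51 to 15.4% and 15.3 to 36.5% in that order. With all 6 arrays it was 35.6%, 28.1% and 42.7%. Between AtrbohB and WT the count of traffic genes called stayed at 0 in every setting run. The other traffic list had 2 calls at 40 against 20 °C under quantile normalization, against 4, where 28.1% of all probe sets were called in both. The SEC median at 30 against 20 °C, 0.29 as reported, was 0.14 with the higher floor and 0.52 without SECA2 and SECE1. At 40 against 20 °C it was 0.13 under quantile normalization, against 0.28, and at 40 against 30 °C it was -0.09 on scaling to a common median, with all 6 arrays above the floor, and without SECA2 and SECE1, against 0.05. The PRA median at 40 against 30 °C, -0.64 as reported, was -0.81 under quantile normalization and -0.44 with 16 added. The response difference of PRA1.H at 30 °C was -0.53 with the higher floor and -0.74 with 16 added, against -1.14. Over 66 results for single genes, 667 of 920 alternative values kept direction and side of the threshold, 253 kept the direction or went to 0 and were no longer called, and 0 reversed. The 66 results include the 6 genes named between AtrbohB and WT. These were not called in any setting, so all their values count among the 667. The calls of the other traffic list, SLY1 among them, are included as well. Where a value moved, the cause was not tested, except that leaving out an array leaves fewer samples. Counts without PRAF1, SECA2 and SECE1, and without SEC5B, were chosen after the data were seen. Those without the 3 genes equalled those reported, and those without SEC5B are given beside that gene. Genotype is a term of the fit, so each temperature comparison was made within genotype. No further pairing was possible, because the groups share a single replicate number. Precision is limited by 1 array a group.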
